A study of Rattus norvegicus with 22 samples.

Results

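Adora2a, Cartpt and Slc6a3 are 3 genes that brain regions below the cortex express far more strongly than the cortex does, and their counts were examined here in 22 samples labelled as cortical tissue. The 3 genes were chosen by name from the 32545 gene identifiers counted. The samples came from 11 adult male Sprague-Dawley rats (spelled Sprague-Daley in the labels), of which 6 received a penetrating ballistic brain injury (PBBI) and 5 received sham surgery. PBBI was made in the right frontal lobe with a probe whose tip carries a balloon that is inflated for an instant, and sham rats had the same procedure with no probe inserted. The titles of both samples of rat 81 and of the contralateral sample of rat 82 carry the letters PFC, which the labels do not explain. All 11 rats, sham included, carried implanted EEG and EMG electrodes for sleep recording. Each rat gave an ipsilateral (right, injured side) and a contralateral sample, taken 24 h after the procedure. The model is 1 strain and 1 sex, and the sham hemispheres also belong to operated animals.

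Adora2a encodes an adenosine receptor that projection neurons of the indirect pathway of the striatum carry at very high levels, where it opposes dopamine signalling; it is a target of caffeine and is known for its part in the control of sleep and wakefulness. Cartpt encodes the precursor of the CART peptides, which neurons of the hypothalamus, nucleus accumbens and some cortical layers make. Slc6a3 encodes the dopamine transporter, which takes dopamine back up; its RNA sits mainly in the cell bodies of midbrain dopamine neurons, while the protein is carried along their axons into the striatum. The striatum lies just below the cortex. The comparison asked whether the 3 genes rose in the same pieces and whether PBBI or hemisphere went with them.

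The 250 bases before the annotated start of Cartpt, Gpr6 (a receptor of the same indirect pathway neurons) and Slc6a3 are shown because they are the stretches where the 3 promoters differ in the letters searched. They come from RefSeq on the rat assembly GRCr8, all on the minus strand, at chr2:32991236-32991485, chr20:46075252-46075501 and chr1:31578963-31579212. Capitals mark a cyclic AMP response element (TGACGTCA, which reads the same on both strands) and the letters TATAA, which do not overlap it; both were searched on both strands.
Cartpt: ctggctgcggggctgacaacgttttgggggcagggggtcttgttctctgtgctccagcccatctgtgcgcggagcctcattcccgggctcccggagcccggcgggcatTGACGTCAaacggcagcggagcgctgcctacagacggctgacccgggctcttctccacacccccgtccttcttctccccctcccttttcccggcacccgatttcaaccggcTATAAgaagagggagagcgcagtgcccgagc
Gpr6: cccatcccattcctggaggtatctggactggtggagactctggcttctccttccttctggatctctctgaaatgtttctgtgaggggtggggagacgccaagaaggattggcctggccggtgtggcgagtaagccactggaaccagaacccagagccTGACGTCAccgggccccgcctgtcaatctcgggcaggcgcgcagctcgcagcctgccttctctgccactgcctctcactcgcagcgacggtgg
Slc6a3: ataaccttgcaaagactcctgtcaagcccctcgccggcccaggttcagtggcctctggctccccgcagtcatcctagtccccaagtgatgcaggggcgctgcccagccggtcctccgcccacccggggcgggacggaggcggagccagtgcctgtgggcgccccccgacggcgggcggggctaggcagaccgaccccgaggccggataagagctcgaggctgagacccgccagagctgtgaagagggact
The element started 142 bases before the start of Cartpt and 93 bases before that of Gpr6, and TATAA started 31 bases before the start of Cartpt. Neither run of letters was in the Slc6a3 window, which was 70.0% G and C against 65.6% for Cartpt and 62.0% for Gpr6. Of 33469 rat promoter windows, 1.59% held the element and 24.0% held TATAA. Of 11 genes looked up (the members and the striatal genes named below), 9 had an entry, 2 of them with the element and 1 with TATAA; Adora2a and Syndig1l had none.

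Total counts per sample were between 42085341 and 63412426. Levels are given as counts and as CPM, counts relative to the size of the library, with library sizes scaled by the trimmed mean of M values (TMM). Identifiers carry no symbols in the deposited counts, and the 1822 that could be named came from lists of genes that the study had called on these samples, the 3 members among them. Of 27 marker genes listed for striatal projection neurons 9 could be named, of 14 for midbrain dopamine neurons 6, and of 8 for cortical projection neurons only Lamp5, so the cortical label could be checked on that gene alone. Lamp5, a gene of cortical neurons, was between 29.8 and 255.4 CPM in the 22 samples.

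Adora2a was detected in every sample, and its level spanned 40.1-fold. In the contralateral sham samples, it had 6806 counts (126.1 CPM) in rat 82, 924 (15.1 CPM) in rat 84, 1418 (25.8 CPM) in rat 86, 629 (10.2 CPM) in rat 91 and 6263 (144.0 CPM) in rat 94. In the ipsilateral sham samples, the counts were 1597 (29.4 CPM), 748 (14.2 CPM), 1496 (40.0 CPM), 4214 (66.8 CPM) and 218 (3.59 CPM) in the same order of rats. Rats 82 and 94 were therefore the highest of all contralaterally, rat 91 was the highest ipsilaterally, and the highest and the lowest level of the whole series were the contralateral and ipsilateral samples of the same sham rat, 94. The 6 contralateral PBBI samples lay closer together, from 11.9 to 30.4 CPM with a median of 26.8 CPM. The 6 ipsilateral PBBI samples ran from 3.69 to 28.1 CPM with a median of 6.20 CPM. In that group rats 85 (24.8 CPM) and 96 (28.1 CPM) stood above rats 81, 83, 88 and 90, which were between 3.69 and 8.08 CPM. PBBI and sham samples overlapped in both hemispheres. For 0 of the 3 members were the groups apart, and of 16587 genes 4.63% had no overlap ipsilaterally and 0.205% contralaterally.

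Cartpt, whose peptide product is tied to feeding and reward, had a level that spanned 24.5-fold. In the contralateral sham samples, the counts were 1526 (28.3 CPM) in rat 82, 451 (7.37 CPM) in rat 84, 370 (6.74 CPM) in rat 86, 251 (4.07 CPM) in rat 91 and 1032 (23.7 CPM) in rat 94. The ipsilateral sham samples held 647, 503, 366, 347 and 407 counts, or between 5.50 and 11.9 CPM, the narrowest range of the 4 groups. The samples high in Adora2a contralaterally, rats 82 and 94, were also high in Cartpt, while the ipsilateral sample of rat 91, high in Adora2a, had the lowest Cartpt of its group. Contralateral PBBI samples ranged from 2.79 to 26.9 CPM with a median of 7.04 CPM, with the highest value in rat 81. Ipsilateral PBBI samples ranged from 2.43 to 59.7 CPM with a median of 5.18 CPM. The highest sample of the series was the ipsilateral one of PBBI rat 85, with 2644 counts, and that library also had the lowest TMM factor of the 22, 0.706. In that library 831 identifiers stood more than 1 above all other samples on the log2 scale. The next most was 204, in the ipsilateral sample of PBBI rat 81. Groups overlapped in both hemispheres.

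Slc6a3 had 40 counts or fewer in all but 1 sample. The ipsilateral sample of sham rat 82 held 73.7% of all 487 counts of the gene, at 6.62 CPM or 1.94 RPKM (CPM divided by the gene length in kilobases), and this was 9.07 times the next highest level. The other ipsilateral sham samples had 0, 2, 2 and 6 counts in rats 84, 86, 91 and 94. The contralateral sham samples had 4, 18, 40, 0 and 8 counts in rats 82, 84, 86, 91 and 94, and the contralateral PBBI samples had 4, 0, 2, 2, 26 and 0 in rats 81, 83, 85, 88, 90 and 96. The ipsilateral PBBI samples had between 0 and 6 counts. A count of 0, found in 6 samples, allows a level of up to 0.0441 to 0.0678 CPM, a limit that covers counting error only and takes counts as independent. Of the 22 counts 21 were even, the 6 counts of 0 among them. Of all counts from 1 to 19 in a sample, which leaves out 0, between 60.8% and 69.6% were even. Counts may therefore not be independent and the limit may be too low. The cause was not tested.

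**Figure D1:**
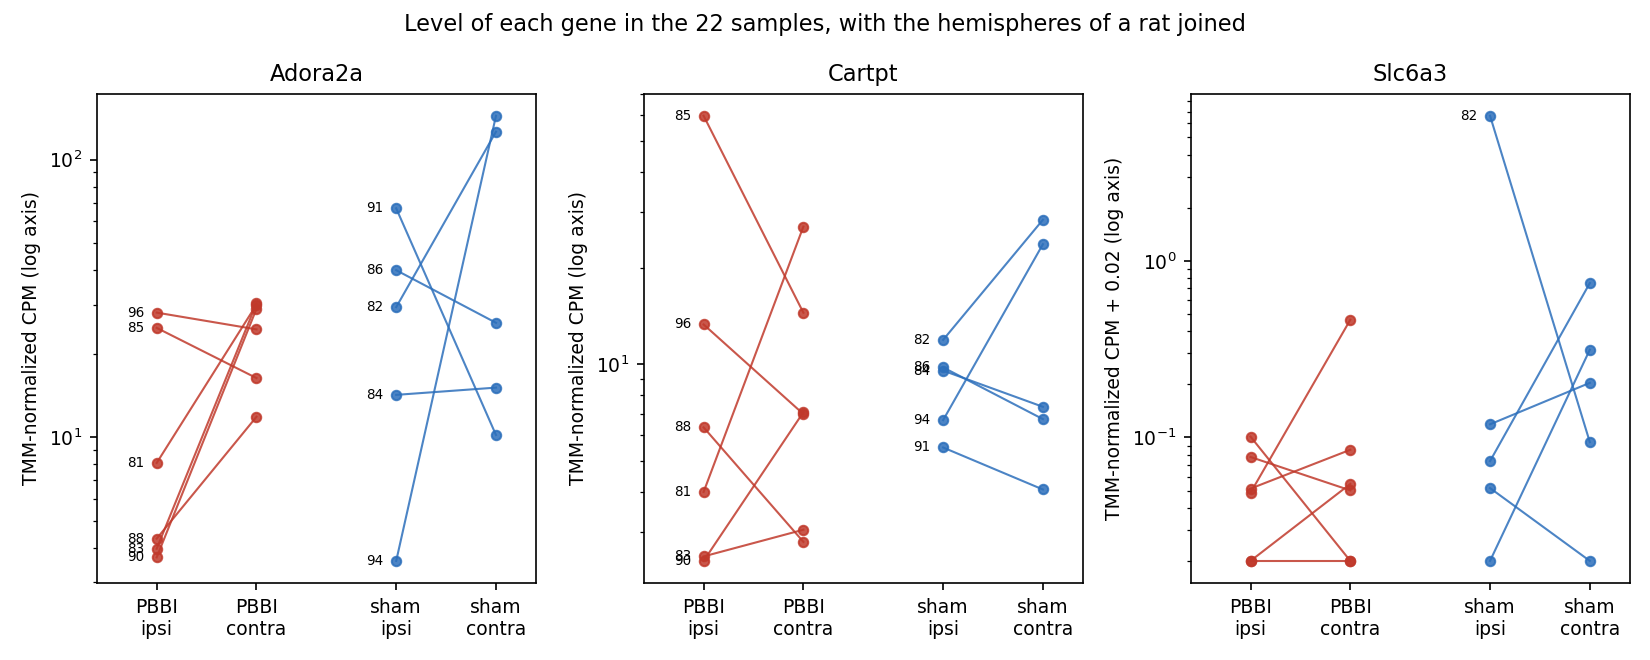
TMM-normalized CPM of Adora2a, Cartpt and Slc6a3 on log axes, with 0.02 added for Slc6a3 so that samples at 0 can be drawn; each line joins the ipsilateral and contralateral samples of a rat (red, 6 PBBI rats; blue, 5 sham rats), with rat numbers beside ipsilateral points. Adora2a lines cross within both groups and reach 144.0 CPM in a sham contralateral sample, Cartpt peaks at 59.7 CPM in PBBI rat 85, and Slc6a3 stands at 6.62 CPM in sham rat 82 alone.

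The rats highest in Adora2a contralaterally were not those highest ipsilaterally. In rat 94 the contralateral sample was 40.1-fold higher than the ipsilateral one, and in rat 91 the ipsilateral sample was 6.55-fold higher. Of the 6 PBBI rats, 4 (81, 83, 88 and 90) were between 2.75-fold and 7.86-fold higher contralaterally, while rats 85 and 96 were 1.52-fold and 1.15-fold higher ipsilaterally. Over the 11 rats, the ipsilateral and contralateral log2 CPM of Adora2a had Pearson r = -0.25 (permutation p = 0.448) and Spearman rho = -0.45 (permutation p = 0.173), and r was 0.26 without rats 91 and 94. For Cartpt the relation between hemispheres was r = 0.31 (permutation p = 0.364) and rho = 0.30 (permutation p = 0.373), and r was 0.26 without rats 85 and 90. For Slc6a3 it was r = 0.01 (permutation p = 0.977) and rho = 0.02 (permutation p = 0.966), and r was -0.00034 without rats 82 and 94.

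No relation among the 3 genes passed the test over rats after adjustment. Adora2a and Cartpt were related ipsilaterally at r = 0.55 (permutation p = 0.0723) and rho = 0.52 (permutation p = 0.107) over 11 rats, and at r = 0.75 without rats 91 and 94, those farthest from the median of Adora2a. Contralaterally they were related at r = 0.69 (permutation p = 0.0168, 0.152 after Benjamini-Hochberg adjustment) and rho = 0.55 (permutation p = 0.0882), and r fell to 0.36 without rats 82 and 94, so the contralateral relation rests on those rats. Adora2a and Slc6a3 had r = 0.23 (permutation p = 0.622) and rho = 0.17 (permutation p = 0.629) ipsilaterally, and r = 0.24 (permutation p = 0.481) and rho = 0.28 (permutation p = 0.393) contralaterally. Cartpt and Slc6a3 had r = 0.12 (permutation p = 0.655) and rho = 0.29 (permutation p = 0.382) ipsilaterally, and r = 0.25 (permutation p = 0.451) and rho = 0.40 (permutation p = 0.220) contralaterally. Without the 2 rats farthest from the median of the first gene of the pair, these last 4 values of r were 0.38, 0.28, 0.50 and 0.38. Ipsilaterally those rats were 91 and 94 for Adora2a, and 85 and 90 for Cartpt. Rat 82, whose ipsilateral sample was the highest in Slc6a3, therefore stayed in both ipsilateral values. Over the 9 relations computed, the smallest adjusted permutation p was 0.152 for r and 0.479 for rho. The sample highest in Slc6a3 had 29.4 CPM of Adora2a, the median of the 5 ipsilateral sham samples, and 11.9 CPM of Cartpt, the highest of those 5.

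**Figure D2:**
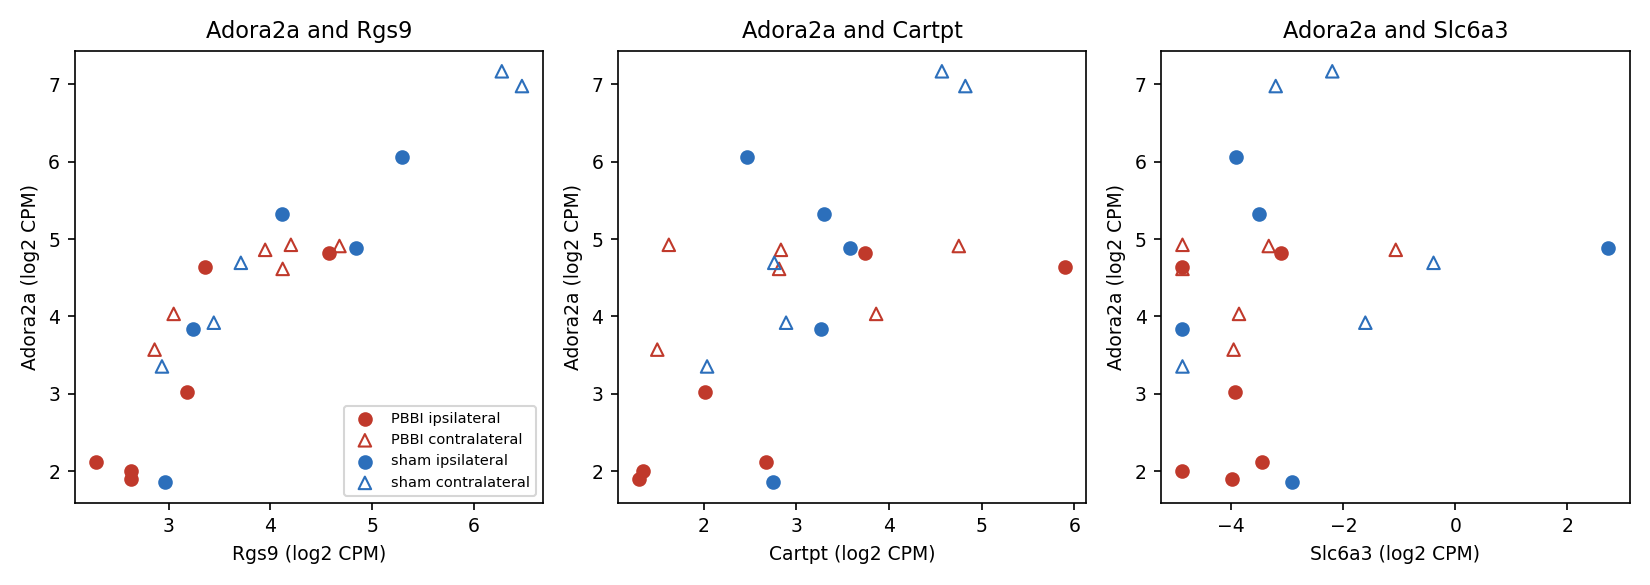
Log2 CPM of Adora2a (vertical axis) against Rgs9, Cartpt and Slc6a3 (horizontal axes) in 22 samples (filled circles, ipsilateral; open triangles, contralateral; red, PBBI; blue, sham). Points follow a narrow band with Rgs9 (Spearman rho 0.92), a wide band with Cartpt (0.58), and spread widely with Slc6a3 (0.32), whose highest sample lies apart at the right.

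Genes of striatal projection neurons were high in the samples high in Adora2a. Of 16586 other genes past the filter on low counts, the most alike over the 22 samples was Rgs9, a regulator that shortens G protein signals in striatal neurons, with Spearman rho = 0.92. Slc35d3 (0.89, rank 4), Tac1, the precursor of substance P (0.88, rank 5), Rarb, a retinoic acid receptor (0.86, rank 9), and Gpr6 (0.84, rank 12) were the next alike that could be named. Syndig1l, a synaptic membrane protein gene (0.80, rank 19), and Rasgrp2, an exchange factor for small G proteins (0.70, rank 40), came further down, and Chrm4, a muscarinic acetylcholine receptor, was at 0.38 with rank 1183. The 22 values share rats in pairs and the names come from genes the study chose on these samples, so these values are a description. Chrm4 was named through the study's list of genes that differ with injury. Adora2a and the other named striatal genes came from its list of genes associated with time in sleep stages. Whether that choice shaped the values of rho was not tested. Within a hemisphere, over 11 rats, rho between Adora2a and the 8 other named striatal genes was between 0.23 and 0.90 ipsilaterally with a median of 0.83, and between 0.27 and 0.94 contralaterally with a median of 0.78.

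Cartpt was less like them. Its most alike named genes were Rarb (0.74, rank 9), Rasgrp2 (0.73, rank 13), Tac1 (0.72, rank 18), Slc35d3 (0.67, rank 68) and B3gnt2, an enzyme that builds sugar chains (0.66, rank 79). Adora2a was at rank 327 for Cartpt (0.58) and Cartpt at rank 132 for Adora2a. Over the 9 striatal genes, rho with Cartpt had a median of 0.53 ipsilaterally and 0.65 contralaterally. For Slc6a3 the most alike named genes reached only 0.55 (RGD1559441), 0.52 (AC091229.1), 0.49 (Mmel1, a metalloendopeptidase), 0.48 (Vipr2, a receptor for the peptide VIP) and 0.47 (Kctd1), where most of its samples hold 6 counts or fewer. Genes with rho of at least 0.8 numbered 19 for Adora2a, 2 for Cartpt and 0 for Slc6a3.

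Within groups, the levels of Adora2a and Cartpt spread more than those of most genes. The SD of log2 CPM within groups was 1.36 for Adora2a, and 3.56% of 16587 genes were at least as spread. It was 1.29 for Cartpt (4.67% of genes) and 0.550 for the median gene. Gpr6 (1.32), Syndig1l (1.22), Rgs9 (1.08) and Slc35d3 (0.985) were also widely spread, Tac1 (0.801) and Rarb (0.676) less so, and Chrm4 (0.335) was under the median gene. All of these genes but Chrm4 were named through the study's list of genes associated with time in sleep stages. That choice was made on these samples and may favour genes that vary between rats of a group. Their place among all genes is therefore a description.

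In most rats the named striatal genes differed between hemispheres in the same direction as Adora2a. All 9 named genes, Adora2a included, were lower ipsilaterally in rats 81, 82, 83 and 90, and all 9 were higher ipsilaterally in rat 91. In rat 82 only the contralateral title carries the letters PFC, so hemisphere and any difference in the piece taken cannot be told apart. In rats 88 and 94, 8 of 9 were lower ipsilaterally, with a median log2 difference of -2.48 in rat 94. In rat 86, 8 of 9 were higher ipsilaterally, in rat 85, 7 of 9, and in rats 84 and 96, 5 of 9. The summed level of the list ranged from 89.5 to 544.1 CPM in contralateral sham samples, from 89.2 to 294.5 CPM in ipsilateral sham samples, from 90.3 to 192.5 CPM in contralateral PBBI samples and from 44.5 to 161.7 CPM in ipsilateral PBBI samples. None of the 9 was at 0 in any sample. In these bulk samples more cells of a type and more RNA per cell cannot be told apart, and whether striatal tissue was part of a sample was not tested.

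The share of Adora2a within the list also varied. It made up 28.6% of the list's summed CPM in the contralateral sample of rat 94 and 4.02% in the ipsilateral one. In the ipsilateral PBBI samples its share ran from 6.60% to 17.9% with a median of 9.75%, against 12.6% to 20.5% with a median of 15.3% in the contralateral PBBI samples. The ipsilateral sham samples had a median of 16.9%, and the contralateral sham samples one of 16.6%.

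**Figure D3:**
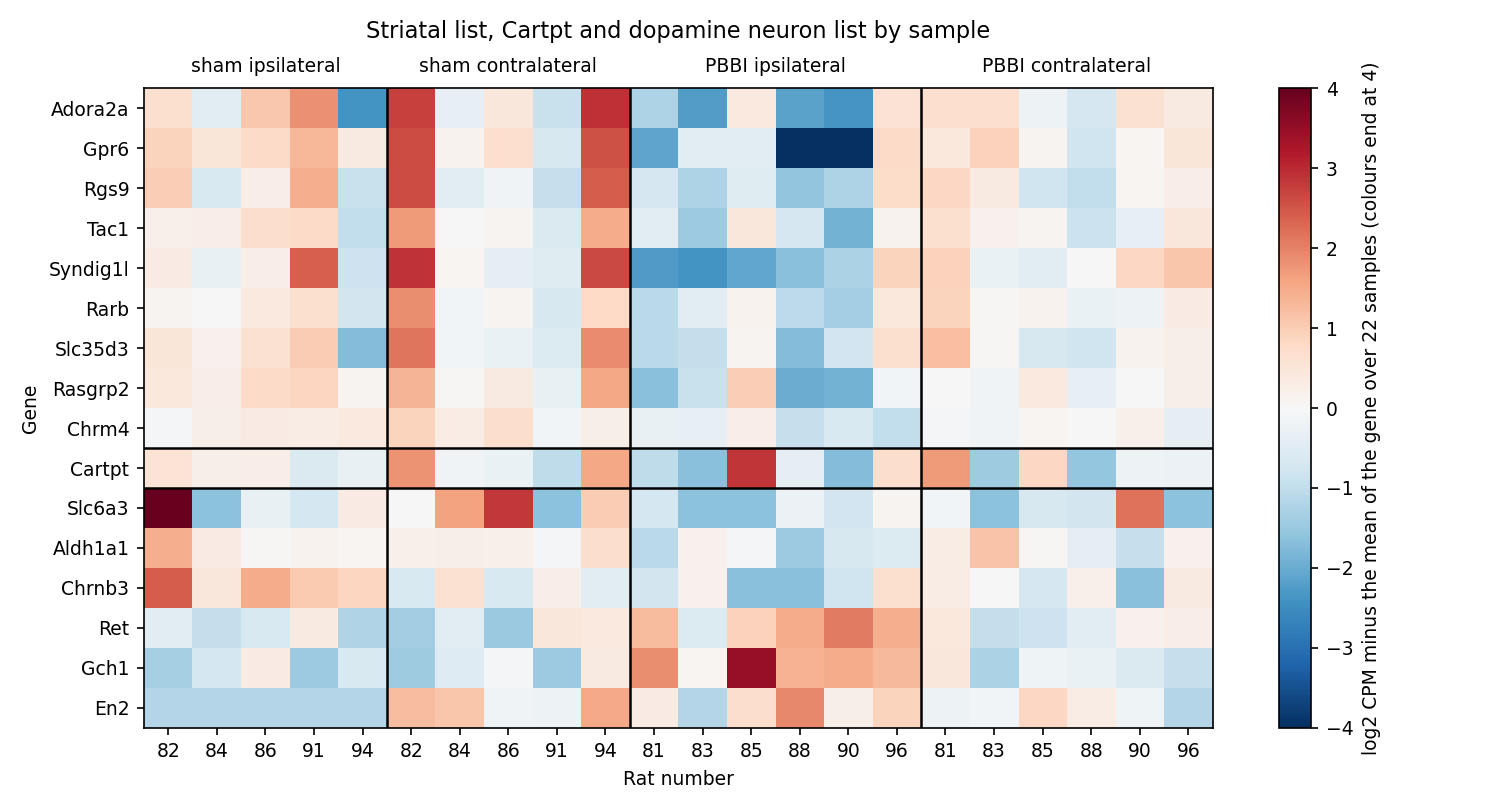
Log2 CPM minus the mean of each gene over the 22 samples (red above, blue below, colours ending at 4), with samples in columns by group and rat number, and rows for the 9 striatal list genes, Cartpt, and the 6 dopamine neuron list genes. Most striatal rows redden together in contralateral sham rats 82 and 94 and ipsilateral sham rat 91, and the Slc6a3 cell of ipsilateral sham rat 82 is the darkest of its row.

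The ipsilateral sample of sham rat 82 stood above all others in Slc6a3 by more than in any other gene. Over the 32545 identifiers, Slc6a3 had the widest gap in that sample above the highest of the other 21, at 3.12 on the log2 scale, and the next gene had 1.78. Wider gaps of this kind were found in other samples. They included 6.04 for Kl in the contralateral sample of PBBI rat 88 and 3.73 for an unnamed identifier in the ipsilateral sample of PBBI rat 90. Aldh1a1, an enzyme that marks a ventral set of dopamine neurons, was among the other dopamine neuron genes that could be named. In the ipsilateral sample of rat 82 it had 2496 counts (46.0 CPM), the highest of the 22 samples. Chrnb3, a nicotinic receptor subunit, had 30 counts (0.553 CPM), also the highest of the 22. En2, a midbrain homeobox gene, was at 0 counts there and in every other ipsilateral sham sample. Ret, a receptor for glial cell line derived factors, had 400 counts (7.37 CPM), within the 4.21 to 12.5 CPM of its group. Gch1, which makes the cofactor of dopamine synthesis, had 31 counts (0.571 CPM), within the 0.523 to 1.90 CPM of its group. The summed level of the 6 genes was 61.1 CPM in this sample, of which Aldh1a1 was 46.0 CPM, and 23.1 CPM in the lowest ipsilateral sham sample. Without Slc6a3 it was 54.5 CPM, under the 56.8 CPM of the ipsilateral sample of PBBI rat 90. It was 27.2 to 56.8 CPM in ipsilateral PBBI samples, 21.4 to 42.9 CPM in contralateral PBBI samples and 24.2 to 42.8 CPM in contralateral sham samples. The 8 remaining genes of the list could not be named here, and the part of dopamine neurons in the result was not tested.

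PBBI was then compared with sham in the ipsilateral samples with the quasi-likelihood test of edgeR, which fits all genes at once, and an adjusted p of 0.05 or less as the call. Of 16104 genes 4.68% were called. Of the 3 members 0 were called, and Slc6a3 was too low to be tested. Adora2a had a log2 fold change of -1.34 (SE 0.728, edgeR adjusted p = 0.399, unadjusted p = 0.0899), and its mean was 12.2 ± 11.2 CPM in PBBI (SD, n = 6) against 30.8 ± 24.5 CPM in sham (SD, n = 5). The exact permutation test over the 462 splits of the 11 rats, two-sided, gave a difference in mean log2 CPM of -1.31 with p = 0.171. That test gave p = 0.0429 without sham rat 94, whose Adora2a was the lowest of the 11, at a difference of -1.94; adjusted values over the 12 permutation tests of the members were 0.688 or more. Cartpt had a log2 fold change of 0.76 (SE 0.778, edgeR adjusted p = 0.740), with 14.7 ± 22.4 CPM in PBBI (SD, n = 6) and 8.69 ± 2.58 CPM in sham (SD, n = 5). The mean of its log2 CPM differed in the other direction, by -0.24 (exact permutation p = 0.797), and without PBBI rat 85 the edgeR value was -0.60. Slc6a3 differed by -1.54 in mean log2 CPM (exact permutation p = 0.225) and by -0.23 without sham rat 82. With no filter, edgeR gave it -5.22 (SE 1.54, adjusted p = 0.0980), a value in which 1 sham library holds most of the counts. Without sham rat 84, which had 0 counts, the permutation difference was -2.13 with p = 0.0476.

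In the contralateral samples 0 of 15907 genes passed in edgeR, or 0% (366 had an unadjusted p under 0.05, DESeq2 called 3 and limma voom 1), and 0 of the members. Adora2a had a log2 fold change of -1.45 (SE 0.601, edgeR adjusted p = 1.00, unadjusted p = 0.0310), with 23.7 ± 7.86 CPM in PBBI (SD, n = 6) and 64.2 ± 65.2 CPM in sham (SD, n = 5). The difference in mean log2 CPM was -0.74 (exact permutation p = 0.381). The edgeR value was between -1.70 and -0.89 when each sample was left out in turn (-0.89 without sham rat 94), and limma voom with sample weights gave -0.15 (SE 0.549, adjusted p = 0.922). Cartpt had -0.45 (SE 0.626, edgeR adjusted p = 1.00), with 10.2 ± 9.21 CPM in PBBI (SD, n = 6) and 14.0 ± 11.1 CPM in sham (SD, n = 5), and a difference in mean log2 CPM of -0.52 (exact permutation p = 0.5). Slc6a3 differed by -1.21 in mean log2 CPM (exact permutation p = 0.229). The smallest p the 462 splits allow is 0.00216.

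The edgeR log2 fold changes of the 9 striatal genes were negative in both hemispheres, and none passed the test. Ipsilaterally 9 of 9 had a negative log2 fold change, with a median of -1.0 against -0.02 for all genes tested, and 2 had an unadjusted p under 0.05, as did 2724 of all 16104 genes. Contralaterally 9 of 9 were negative with a median of -0.89 against -0.01, and 5 had an unadjusted p under 0.05, as did 366 of all 15907 genes. There the summed level of the list was 544.1 CPM in sham rat 82 and 502.9 CPM in sham rat 94. Its group medians were 155.8 CPM in sham and 146.0 CPM in PBBI. The contralateral median CPM was higher in PBBI for Adora2a, Rgs9, Syndig1l, Tac1 and Slc35d3, and lower for Gpr6, Rarb, Chrm4 and Rasgrp2. The edgeR adjusted p was 0.170 or more ipsilaterally and 1.00 contralaterally. These genes vary together across samples and were chosen by the study on the same samples, so their shared sign is not independent evidence.

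Of the other genes of these pathways, several passed ipsilaterally; the study chose these genes on the same samples, so their calls are not independent evidence. In the adenosine pathway 3 of 11 listed genes could be named. Adk, the kinase that clears adenosine, fell by 0.89 on the log2 scale (edgeR adjusted p = 0.0330), and Nt5e, the enzyme that makes adenosine outside cells, was at 1.11 (adjusted p = 0.143). In the dopamine neuron list, of 3 genes tested Gch1 rose by 2.64 (edgeR adjusted p = 0.0275) and Ret by 1.76 (adjusted p = 0.0341), while Aldh1a1 was at -1.03 (adjusted p = 0.129). Among transporters of the Slc6 family, Slc6a5, the glycine transporter of inhibitory neurons, rose by 1.55 (adjusted p = 0.0398). Markers of other cells moved with PBBI in the same samples. Of 3 astrocyte markers 2 could be named, where Gfap rose by 2.99 (edgeR adjusted p = 0.00407) and Aldh1l1 fell by 0.96 (adjusted p = 0.0418). Of 5 markers of microglia and macrophages 2 could be named, and both Itgam (2.58, adjusted p = 0.00833) and Ptprc (1.98, adjusted p = 0.00551) rose. Of 7 hypothalamic or thalamic markers only Trh, a peptide precursor, could be named, and it rose by 5.16 (adjusted p = 0.00689). Lamp5, the cortical gene, was at -1.23 (adjusted p = 0.103), Kl, the only one of 5 choroid plexus markers with a name, was at -0.09 (adjusted p = 0.972), and 0 of 4 oligodendrocyte markers could be named. Their part in the values of the members was not tested.

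Hemispheres were compared within each treatment, in edgeR fits that took the 2 samples of a rat as independent unless the block is named. Within PBBI 3.56% of 15973 genes were called, and 0 members. Adora2a was -0.93 (SE 0.540, edgeR adjusted p = 0.426) ipsilateral minus contralateral, and the within-rat difference in log2 CPM averaged -1.41, lower ipsilaterally in 4 of 6 rats (exact sign-flip permutation p = 0.125; the 64 flips allow 0.03125). With the rat as a block it was -1.43 (adjusted p = 0.134), and the count of genes called rose from 568 to 1646. Adora2a passed in limma voom with sample weights, at -1.87 (adjusted p = 0.00637), a fit with no term for the rat that called 3695 of 15973 genes. It also passed with the block when PBBI rat 85 was left out, at -1.82 (adjusted p = 0.0264). That fit was added after seeing the data and called 3356 of 16021 genes. Cartpt was 0.57 (SE 0.836, edgeR adjusted p = 0.806), 0.01 with the block and -0.71 without PBBI rat 85, and its mean within-rat difference was -0.07 (exact sign-flip permutation p = 0.938). Slc6a3 differed by -0.38 (exact sign-flip permutation p = 0.625).

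Within sham 0 of 15747 genes passed in edgeR, or 0% (47 had an unadjusted p under 0.05, and DESeq2 and limma voom called 0), and 0 members. Adora2a was -1.07 (SE 0.819, edgeR adjusted p = 1.00), -0.65 in limma voom and -0.61 with the rat as a block, and the mean within-rat difference of -0.83 (exact sign-flip permutation p = 0.688) turned to 0.29 without rat 94. Cartpt was -0.69 (SE 0.492, edgeR adjusted p = 1.00), -0.15 in limma voom and -0.34 with the block, with a mean within-rat difference of -0.34 (exact sign-flip permutation p = 0.563). Slc6a3 differed by -0.04 (exact sign-flip permutation p = 1.00), with 359 counts ipsilaterally against 4 contralaterally in rat 82, and 2 against 40 in rat 86. The titles of the 2 samples of rat 82 differ in the unexplained letters PFC. The 32 flips of 5 rats allow no p under 0.0625, so this test cannot reach 0.05.

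**Figure D4:**
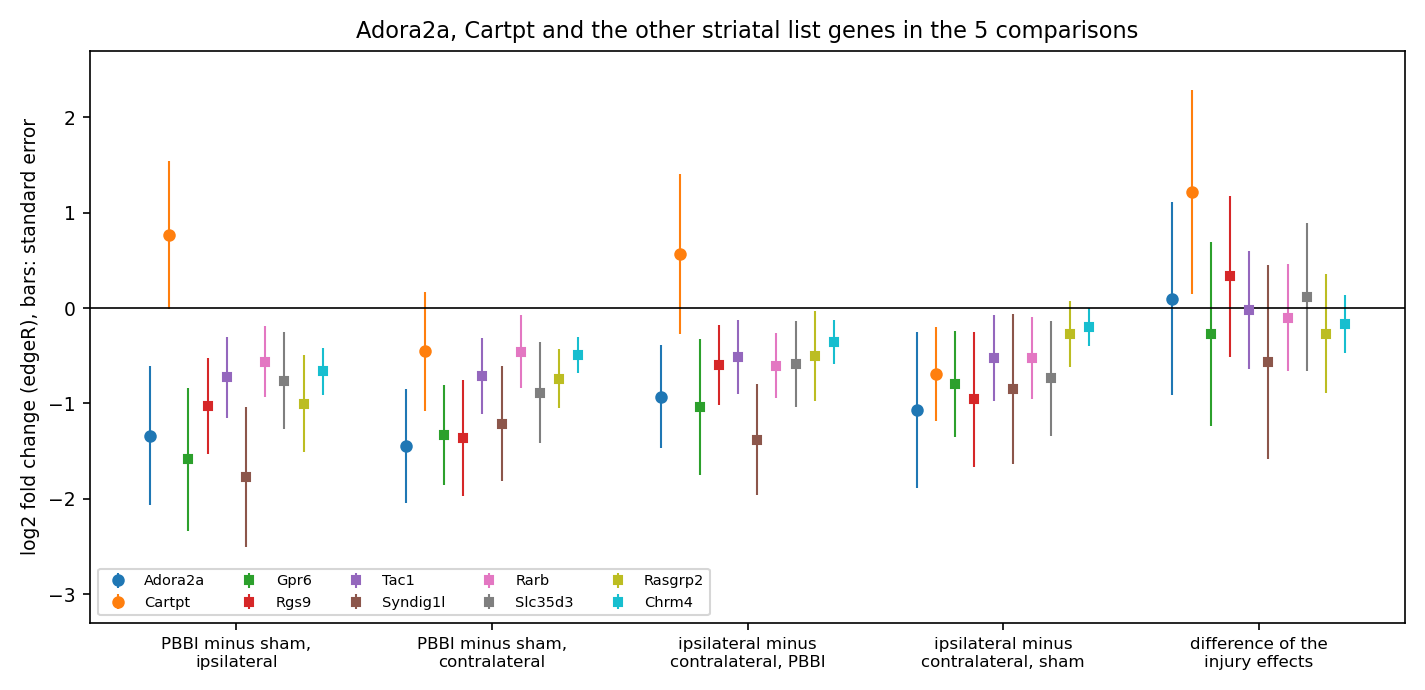
Log2 fold change (edgeR, vertical axis) of Adora2a, Cartpt (circles) and the 8 other striatal list genes (squares) in the 5 comparisons, with bars of 1 standard error. The striatal genes lie below 0 in the 4 comparisons of groups, from -1.77 to -0.56 for PBBI minus sham ipsilaterally, and Cartpt lies above 0 ipsilaterally, within PBBI and for the difference of injury effects, where leaving out PBBI rat 85 turns its sign; none of these values passed the test.

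The difference between the injury effects of the 2 hemispheres was tested over all 22 samples, where 0.326% of 16587 genes were called and 0 members. For Adora2a it was 0.10 (SE 1.01, edgeR adjusted p = 0.998), with a sign that turned to -0.82 (adjusted p = 0.787) with the rat as a block, which called 708 genes against 54. For Cartpt it was 1.21 (SE 1.07, edgeR adjusted p = 0.882), 0.33 with the block and -0.04 without PBBI rat 85. With no filter, Slc6a3 was at -3.83 (SE 1.96, edgeR adjusted p = 0.609).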

How the data were processed

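Cortical RNA of 22 samples (11 rats, both hemispheres) was analysed. Per the labels and the methods of the study, ribosomal RNA was depleted, stranded libraries were sequenced from both ends, and the authors aligned reads with STAR 2.4.2a to Rnor_6.0 and counted them on genes with featureCounts 1.4.3-p1. The authors deposited raw counts with gene lengths and no normalization. How strand and reads of several places were handled is not given in the sources used here. No molecular identifiers are named, so limits on counts cover counting error only. Samples were grouped by the treatment, hemisphere and animal number of the labels. Rats were operated in weekly sets that are not among the labels, and no fit has a term for them. Coordinates of Rnor_6.0 were not used here.

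Of 32545 identifiers, 1822 were paired with a symbol through gene lists of the study; a RefSeq table (GRCr8) holds 0 Ensembl identifiers. The columns of the lists' fold changes and p-values were not used. The 3 genes and all marker lists were chosen with earlier results of these data known. The genes named are the members, every listed marker that could be paired, and the 5 paired genes most alike to each member.

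Genes were tested with the quasi-likelihood test of edgeR 4.0.16 (R 4.3.3) after TMM scaling and filterByExpr. P-values were adjusted by Benjamini and Hochberg over all genes of a fit and called at 0.05. Log2 CPM used a prior count of 2 and RPKM the deposited gene length. Single members were tested by two-sided exact permutation, and correlations with 100000 resamples (scipy 1.17.1). Same-numbered samples come from the same rat, and their deviations correlated at 0.246 or more in all 11 rats, so a paired fit (rat as block) was run beside the unpaired one. Alternatives were RLE scaling, no filter, a minimum of 10 counts throughout, DESeq2 1.42.0, limma 3.58.1 voom with sample weights, all 22 samples in the same fit, a prior count of 0.5, residuals from group means, and leaving out each sample or rat. Leaving out rat 85 with the block, and rats 82 and 94 together, were added after seeing the data. Scripts were tested on simulated data with 200 changed genes. Total counts were between 42085341 and 63412426. P-values of the permutation tests, and of the injury fits within 1 hemisphere, measure the spread between rats, with 5 or 6 per group. The fits of hemisphere and of injury by hemisphere without the block, and those of all 22 samples, take the 2 samples of a rat as independent. Their p-values measure the spread between samples.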

Additional observations from a re-analysis of the deposited data

Results flagged for a closer look

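Of 111 groups of samples examined for a sample far from the others, 7 had one (the gap to the nearest sample, divided by the range of the group, above Dixon's critical value, all on log2 CPM); chance alone gives about 1 in 20 groups. The ipsilateral sample of sham rat 82 stood apart for Slc6a3 at 6.62 CPM and for Aldh1a1 at 46.0 CPM. The ipsilateral sample of PBBI rat 96 was the highest of its group for Syndig1l at 13.6 CPM and for Slc6a5 at 24.9 CPM. Contralateral samples stood apart for Adk in PBBI rat 85 at 119.7 CPM, for Slc6a4, the serotonin transporter gene, in sham rat 91 at 0.162 CPM, and for Kl, a gene of the choroid plexus, in PBBI rat 88 at 39.7 CPM.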

How the results depend on the processing

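Counts of genes called moved with the tool and with single libraries. For PBBI against sham ipsilaterally, 753 became 1639 in DESeq2, 5014 in limma voom, 1655 when all 22 samples shared a fit, and 316 to 2186 leaving out a sample (316 without sham rat 91, 2186 without PBBI rat 85). Contralaterally, 0 became 3 in DESeq2, 1 in limma voom and 0 to 1 leaving out a sample. For the difference between hemispheres in the injury effect, 54 became 353 in DESeq2, 1663 in limma voom, 708 with the rat as a block, 1358 with the block and without PBBI rat 85, and 0 to 255 leaving out a rat. Between hemispheres within PBBI, 568 became 1535, 3695, 1646 and 3356 in the same order, and 1 to 1149 leaving out a rat (1 without rat 88). Within sham it was 0 in edgeR throughout, with the block too.

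Values of the members changed sign as follows. Cartpt ipsilaterally was -0.73 in limma voom, and between -0.60 and 0.99 leaving out a sample. The injury by hemisphere value of Adora2a was -1.22 in limma voom, -0.82 with the block, -1.24 with the block and without PBBI rat 85, and between -0.73 and 0.87 leaving out a rat (negative without 82, 85, 94 or 96). That of Cartpt was -0.32 in limma voom, -0.12 with the block and without PBBI rat 85, and between -0.036 and 1.99 leaving out a rat. Within PBBI, Cartpt was -0.47 in limma voom, -0.44 with the block and without PBBI rat 85, and between -0.71 and 1.30 leaving out a rat. The block alone changed no call of a member.

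Leaving out a sample or rat, the permutation differences ranged for Adora2a from -1.94 to -0.89 ipsilaterally and from -1.72 to 0.29 between hemispheres within sham. For Cartpt they ranged from -0.86 to 0.064 ipsilaterally, from -0.49 to 0.47 within PBBI and from -0.56 to 0.024 within sham. For Slc6a3 they ranged from -2.13 to -0.23 ipsilaterally, from -0.81 to 0.13 within PBBI and from -1.54 to 0.76 within sham. Spearman rho of Adora2a and Slc6a3 ipsilaterally was -0.018 on residuals from treatment means and between -0.0061 and 0.46 leaving out a rat. That of Slc6a3 between hemispheres was -0.18 on residuals, -0.17 without rats 82 and 94 together, and between -0.17 and 0.18 leaving out a rat. The cause of these changes was not tested. With 6 counts or fewer of Slc6a3 in most samples, the order of those samples is not resolved at this depth.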

Other observations

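Trh, the precursor of thyrotropin-releasing hormone, was high in ipsilateral PBBI samples (37.6 to 325.3 CPM), and the contralateral sample of sham rat 94, highest in Adora2a, had 56.7 CPM against 0.625 CPM in the ipsilateral sample of the same rat. The other contralateral sham samples had between 0.839 and 2.97 CPM. Contralateral PBBI samples ran from 2.08 to 37.5 CPM, with the highest in rat 81, and ipsilateral sham samples from 0.570 to 11.1 CPM. The contralateral sample of sham rat 82, second highest in Adora2a, had 1.82 CPM. Slc6a4 was at most 0.162 CPM in contralateral samples and reached 1.35 CPM in the ipsilateral sample of PBBI rat 81, which had 2 counts of Slc6a3. In the other ipsilateral PBBI samples it was 0.892 CPM in rat 88, 0.945 in rat 90, 0.379 in rat 96, 0.136 in rat 85 and 0 in rat 83. Ipsilateral sham samples had between 0.0329 and 0.114 CPM.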
